A study of Mus musculus with 21 samples.

Results

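Trpc6, Cdh9, Gask1b, Ngb, Lipg and Rgs16 are 6 of the 12393 mouse genes measured in the cortex of mice expressing wild-type human TDP-43. They stood among the 12 largest decreases of the 191 genes that passed the threshold as lower, and at places 13 to 29 by size among all genes. They were chosen by their level in tTA/TDP-WT arrays minus Non-transgenic arrays, so that difference is given below as a description and not as a test. Trpc6, Cdh9, Gask1b and Ngb were also lower in mice whose TDP-43 transgene lacks a working nuclear localization signal. That comparison was between 2 other groups, neither of them a side of the choosing difference. All 21 arrays shared 1 estimate of the spread and 1 sex term. Those groups therefore bore on which genes passed the threshold of the choice. Through the sex term they also bore on the sizes, as in Lipg (-1.60, and -1.65 without tTA/TDP-DeltaNLS array 5). The call of Trpc6 in the comparison of those groups was lost without any 1 of 10 of the 21 arrays. Ngb read the lowest value on all 5 tTA/TDP-DeltaNLS arrays. Lipg and Rgs16 did not pass the test in that comparison.

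Affymetrix MOE430A 2.0 arrays read RNA from the cerebral cortex of 21 mice, 1 array a mouse, 2 weeks after doxycycline was taken out of the diet. The 5 tTA/TDP-DeltaNLS mice (4 male, 1 female) carried tTA and the mutant transgene of line NLS4. The 4 Monogenic DeltaNLS mice (3 male, 1 female) carried the same transgene without tTA, which leaves it without its activator. The 4 tTA/TDP-WT mice (1 male, 3 female) carried tTA and the wild-type transgene of line WT12. The 8 Non-transgenic mice (4 male, 4 female) carried neither, with 6 from line NLS4 and 2, both female, from line WT12. All mice were of a mixed C57BL/6J and C3HeJ background and all went through the same withdrawal of doxycycline. In the published description of these lines tTA is driven by the Camk2a promoter, which is active in forebrain excitatory neurons. Each transgene is represented by 1 line, and no group carried tTA alone, so tTA and the transgene it switches on cannot be told apart. In bulk tissue, fewer cells of a type and less RNA per cell also cannot be told apart. The p-values below measure the spread between mice.

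TDP-43 is an RNA-binding protein that resides mainly in the nucleus, prefers UG-rich RNA, and takes part in splicing and in the control of RNA stability, including that of its own transcript. The 6 genes belong to unrelated families. Trpc6 is a cation channel of the plasma membrane opened by diacylglycerol after receptors activate phospholipase C. Cdh9 is a classical cadherin that joins cells and is known for its part in the wiring of hippocampal synapses. Gask1b encodes a kinase-like protein of the Golgi apparatus. Ngb encodes neuroglobin, an oxygen-binding heme protein of neurons. Lipg encodes endothelial lipase, a secreted phospholipase that acts on high-density lipoprotein. Rgs16 speeds the GTPase activity of G protein alpha subunits and so shortens signalling from their receptors.

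Promoters of 4 of the 6 genes matched the RefSeq table of GRCm38.p6, and a short window of each is printed because genes whose levels move together invite the question of what their promoters have in common. Each gene has 1 entry there, at a transcript start that for Rgs16 is the start of the gene and for Trpc6, Cdh9 and Gask1b lies 275, 365 and 1446 bases inside the gene as annotated. The 250 bases before that transcript start were searched on both strands for 4 motifs: TGACG, the core of a CREB-type site, CCAAT, bound by NF-Y in many promoters, the TATA box motif TATAAA, and, as a repeat of the UG type, TGTGTG. No motif contains another. Capitals mark the matched letters, and all windows are 5' to 3' on the plus strand. They lie at chr9:8544027-8544056, chr15:16728829-16728858, chr3:79885824-79885853 and chr1:153740273-153740302.
Trpc6: aggtggggatcgTGACGgaggacgtggggg
Cdh9: gcggaatggaagCCAATcagagagttcctt
Gask1b: taaaatcagactCACACAcctatcttgctt
Rgs16: ccccactctcttATTGGtcggcgacgttcg
In Trpc6 the TGACG began 103 bases before the start, and 17.8% of 32851 promoters held that motif. Cdh9 had a CCAAT 74 bases before the start and Rgs16 had its reverse complement 68 bases before it, against 33.8% of all promoters. The reverse complement of TGTGTG lay 94 bases before the start of Gask1b, and 17.9% of promoters held that motif. Since it lies before that transcript start, this match is not a UG repeat in that transcript. TATAAA was in 12.4% of promoters and in 0 of the 4. The G and C content of the 250 bases was 56.4% in Trpc6, 48.0% in Cdh9, 39.6% in Gask1b and 66.4% in Rgs16, against a median of 52.4%. The windows shown for Trpc6, Cdh9 and Gask1b, whose levels went together on these arrays, carry different motifs. A match of letters is a description and does not show that a factor binds there.

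Several properties of the arrays bear on the values. The 22690 probe sets were deposited as log2 levels from 2.04 to 15.1, and between 30.7% and 32.4% of them sat at 2.04, the lowest value, on each array. A difference that ends at 2.04 is therefore compressed. The log2 level of the 3' actin control minus that of the 5' one, a measure of RNA integrity, was between 1.37 and 1.43 in tTA/TDP-WT and between 1.34 and 3.13 in both DeltaNLS groups. It was 1.46 or more on every Non-transgenic array, so these and the tTA/TDP-WT arrays did not overlap in it. It reached 4.70 and 8.20 on Non-transgenic arrays 4 and 6, which stand apart. Values without these arrays are given below for the comparisons that use Non-transgenic arrays. Leaving them out does not close the gap to tTA/TDP-WT in this measure, and its part in the differences was not tested. Non-transgenic array 1, labelled male, read as female by Xist (11.97, against 2.04 on all other arrays labelled male). Of the cortical excitatory markers 6 of 8 were measured, and none was at the lowest value on any array. Nrgn (12.51 to 13.22), Tbr1 (11.14 to 12.07), Neurod6 (9.60 to 11.18) and Cux2 (8.60 to 9.81) varied less over the arrays than Bcl11b (5.53 to 8.62) and Camk2a (2.64 to 10.9).

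The 6 genes are read by 11 probe sets, and 3 of these, 1 each for Ngb, Lipg and Rgs16, were at the lowest value on all 21 arrays. All 6 genes had at least 1 probe set above it. The probe set of highest mean stands for a gene below, and the second probe sets of Lipg and Rgs16 are given beside it. In the group differences, sex is held constant.

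**Figure D1:**
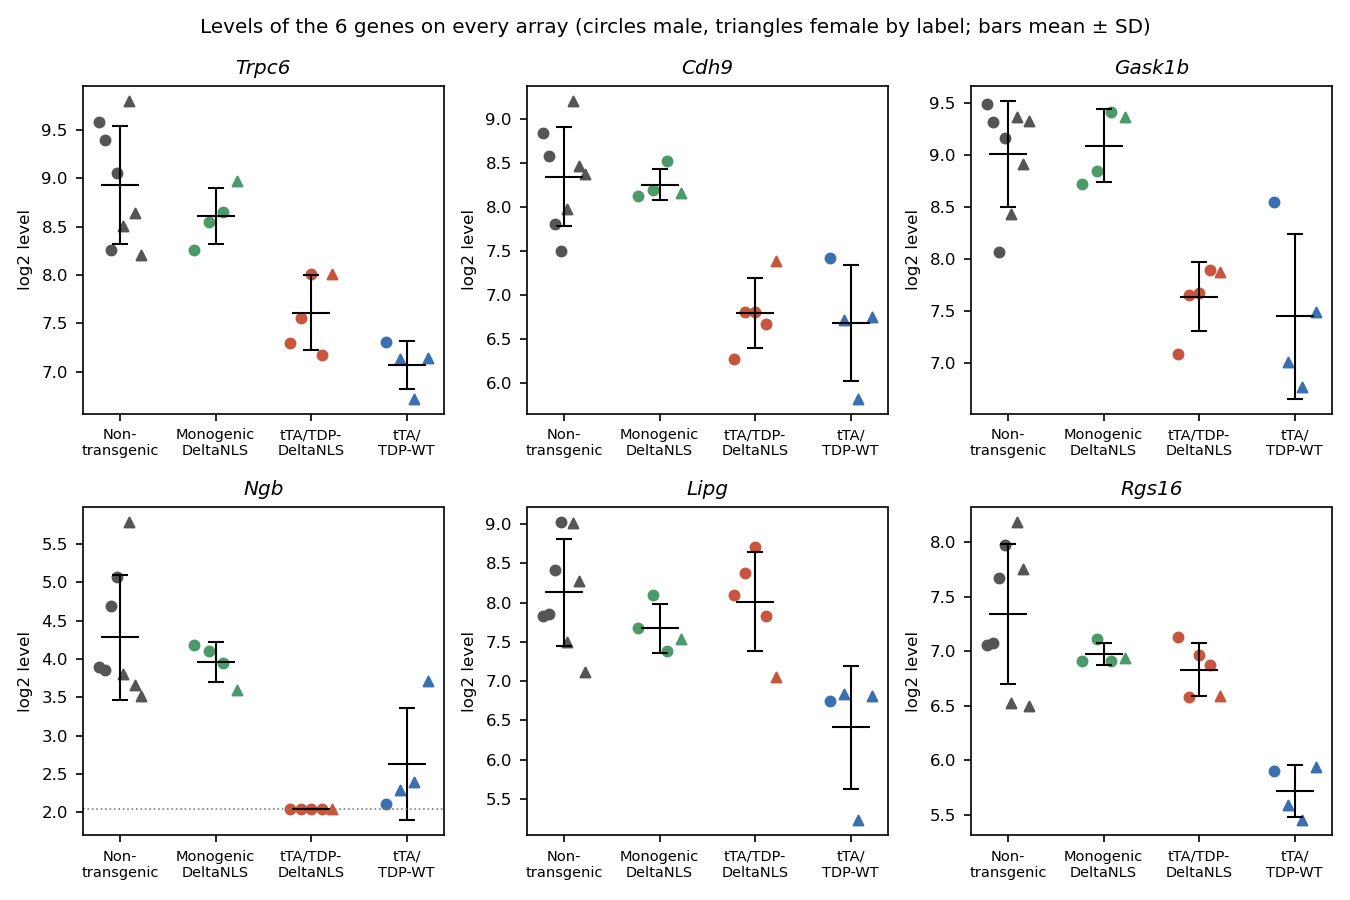
Log2 level of the 6 genes (vertical axes, 1 panel a gene) on each of the 21 arrays (points), by genotype group on the horizontal axis, with black bars for mean ± SD, circles for males and triangles for females by label. Trpc6, Cdh9, Gask1b and Ngb were low in both tTA groups, whereas Lipg and Rgs16 were low in tTA/TDP-WT and lay among the controls in tTA/TDP-DeltaNLS.

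Trpc6, the cation channel (1449431_at, gene at chr9:8543867-8680752 in GRCm38.p6), read 7.31, 7.13, 6.72 and 7.14 on the 4 tTA/TDP-WT arrays. The tTA/TDP-DeltaNLS arrays read 7.30, 7.55, 8.01, 7.17 and 8.01, and the Monogenic DeltaNLS arrays 8.26, 8.55, 8.65 and 8.97. The 8 Non-transgenic arrays ran from 8.21 to 9.80 with a median of 8.84. Every array of either tTA group lay below every array of both control groups. The order of the means was Non-transgenic 8.93 ± 0.61 (SD, n = 8), Monogenic DeltaNLS 8.61 ± 0.29 (n = 4), tTA/TDP-DeltaNLS 7.61 ± 0.39 (n = 5) and tTA/TDP-WT 7.07 ± 0.25 (n = 4). Neighbours overlapped at both ends of this order and separated between Monogenic DeltaNLS and tTA/TDP-DeltaNLS. The difference that chose the gene was -1.85 ± 0.29 (SE), a 3.62-fold lower level, and -1.67 without Non-transgenic arrays 4 and 6. Trpc6 fell by 1.00 ± 0.32 between Monogenic DeltaNLS and tTA/TDP-DeltaNLS, 2.00-fold (95% interval -1.67 to -0.33, limma with Benjamini-Hochberg adjusted p = 0.0427). This call was lost without any 1 of 10 of the 21 arrays, among them tTA/TDP-DeltaNLS 1, 2 and 4 (adjusted p = 0.0971, 0.0794 and 0.0972) and Monogenic DeltaNLS 2, 3 and 4 (0.0774, 0.0981 and 0.148). The other such arrays were Non-transgenic 4 (0.0504) and tTA/TDP-WT 1, 2 and 4 (0.0517, 0.0541 and 0.0539). Over all 21 omissions the adjusted p ran from 0.0173 to 0.148, and it was 0.0193 without Non-transgenic arrays 4 and 6 together.

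Cdh9, the cadherin (1427618_at, chr15:16728550-16857138), read 7.42, 6.71, 5.82 and 6.75 in tTA/TDP-WT. It read 6.27, 6.80, 6.80, 6.67 and 7.38 in tTA/TDP-DeltaNLS and 8.12, 8.19, 8.52 and 8.16 in Monogenic DeltaNLS. The Non-transgenic arrays ran from 7.5 to 9.20 with a median of 8.41. The lowest Non-transgenic array, at 7.5, lay just above the highest array of each tTA group, at 7.42 and 7.38. The means were 6.68 ± 0.66 in tTA/TDP-WT and 6.79 ± 0.40 in tTA/TDP-DeltaNLS, against 8.25 ± 0.18 in Monogenic DeltaNLS and 8.34 ± 0.56 in Non-transgenic, so both tTA groups overlapped with each other and both controls did too. The choosing difference was -1.68 ± 0.31, or 3.22-fold, and -1.63 without Non-transgenic arrays 4 and 6. From Monogenic DeltaNLS to tTA/TDP-DeltaNLS Cdh9 fell by 1.46 ± 0.34, or 2.75-fold (95% interval -2.17 to -0.75, limma adjusted p = 0.00631). The call was kept without each of the 21 arrays, with an adjusted p of 0.0264 at most.

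Gask1b, the Golgi kinase-like gene (1416805_at, chr3:79884484-79946278), read 8.55, 7.01, 6.77 and 7.49 in tTA/TDP-WT. In tTA/TDP-DeltaNLS it read 7.09, 7.66, 7.67, 7.90 and 7.88, and in Monogenic DeltaNLS 8.72, 8.85, 9.41 and 9.37. Non-transgenic arrays ran from 8.07 to 9.49 with a median of 9.24. All tTA/TDP-DeltaNLS arrays lay below all control arrays, while tTA/TDP-WT array 1, the only male of that group, lay within the Non-transgenic range. The means were 7.45 ± 0.79, 7.64 ± 0.33, 9.09 ± 0.35 and 9.01 ± 0.51 in the same order of groups, and the neighbours within each pair overlapped. The choosing difference was -1.52 ± 0.32, or 2.87-fold, and -1.43 without Non-transgenic arrays 4 and 6. Gask1b fell by 1.45 ± 0.34 from Monogenic DeltaNLS to tTA/TDP-DeltaNLS, 2.73-fold (95% interval -2.18 to -0.72, limma adjusted p = 0.00745), and stayed past the threshold without each array, at 0.0357 or less.

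Ngb, neuroglobin (1417996_at, chr12:87097531-87102539), read close to the lowest value of the arrays. All 5 tTA/TDP-DeltaNLS arrays sat at that value, 2.04. The tTA/TDP-WT arrays read 2.11, 2.29, 2.40 and 3.71, and the Monogenic DeltaNLS arrays 4.18, 4.11, 3.95 and 3.60. Non-transgenic arrays ran from 3.52 to 5.78 with a median of 3.87. Wild-type arrays 1, 2 and 3 were thus close to 2.04, and array 4 lay among the controls. Since the DeltaNLS arrays have no spread and no level below 2.04 can be read, sizes for Ngb are compressed. The means were 2.63 ± 0.73 in tTA/TDP-WT, 3.96 ± 0.26 in Monogenic DeltaNLS and 4.28 ± 0.81 in Non-transgenic. The choosing difference was -1.64 ± 0.38, and it was -1.24 without Non-transgenic arrays 4 and 6, the highest 2 of that group at 5.07 and 5.78. From Monogenic DeltaNLS to tTA/TDP-DeltaNLS Ngb fell by 1.92 ± 0.41, 3.79-fold (95% interval -2.80 to -1.05, limma adjusted p = 0.00370), with 0.0142 as the highest adjusted p over the omissions.

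Lipg, endothelial lipase (1450188_s_at, chr18:74939322-74961263), read 6.75, 6.84, 5.23 and 6.81 in tTA/TDP-WT. The tTA/TDP-DeltaNLS arrays read 8.10, 8.37, 8.71, 7.83 and 7.05, and the Monogenic DeltaNLS arrays 7.68, 8.10, 7.38 and 7.53. Non-transgenic arrays ran from 7.12 to 9.02 with a median of 8.07. All tTA/TDP-WT arrays lay below all arrays of the other groups, and the other 3 groups overlapped. The means were 6.41 ± 0.78 in tTA/TDP-WT, 8.01 ± 0.63 in tTA/TDP-DeltaNLS, 7.67 ± 0.31 in Monogenic DeltaNLS and 8.13 ± 0.68 in Non-transgenic. The choosing difference was -1.60 ± 0.37, or 3.04-fold, and -1.29 without Non-transgenic arrays 4 and 6. In tTA/TDP-DeltaNLS minus Monogenic DeltaNLS the difference was 0.32 ± 0.40 (limma adjusted p = 0.889). Its 95% interval was -0.54 to 1.17. The second probe set, 1421262_at, read 4.44, 4.82, 3.61 and 5.49 in tTA/TDP-WT and between 6.51 and 7.77 in tTA/TDP-DeltaNLS. It read between 5.20 and 6.71 in Monogenic DeltaNLS and between 4.69 and 7.61 in Non-transgenic. Its choosing difference was -1.57 ± 0.48, with overlap, and its tTA/TDP-DeltaNLS minus Monogenic DeltaNLS difference was 0.99 ± 0.52 (limma adjusted p = 0.307 over all probe sets).

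Rgs16, the regulator of G protein signalling (1455265_a_at, chr1:153740353-153745468), read 5.90, 5.59, 5.45 and 5.94 in tTA/TDP-WT. It read 7.13, 6.58, 6.96, 6.87 and 6.59 in tTA/TDP-DeltaNLS and 6.91, 7.11, 6.91 and 6.94 in Monogenic DeltaNLS. Non-transgenic arrays ran from 6.50 to 8.18 with a median of 7.37. The 4 wild-type arrays spanned a narrow range below every other array, and the other 3 groups overlapped. The means were 5.72 ± 0.24, 6.83 ± 0.24, 6.97 ± 0.10 and 7.34 ± 0.64 in the order tTA/TDP-WT, tTA/TDP-DeltaNLS, Monogenic DeltaNLS and Non-transgenic. The choosing difference was -1.57 ± 0.28, or 2.97-fold, and -1.31 without Non-transgenic arrays 4 and 6. Between tTA/TDP-DeltaNLS and Monogenic DeltaNLS it was -0.16 ± 0.30 (95% interval -0.78 to 0.47, limma adjusted p = 1.00). The second probe set, 1426037_a_at, read 3.78, 3.95, 4.13 and 4.43 in tTA/TDP-WT, overlapping the Non-transgenic range of 4.04 to 5.27. Its choosing difference was smaller, at -0.58 ± 0.23, and its tTA/TDP-DeltaNLS minus Monogenic DeltaNLS difference was 0.64 ± 0.25 (limma adjusted p = 0.117 over all probe sets). By group mean, both of these probe sets of Rgs16 read lowest in tTA/TDP-WT (4.07 on the second), with differences of unlike size. In tTA/TDP-DeltaNLS minus Monogenic DeltaNLS they differed in sign, and neither passed.

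In tTA/TDP-DeltaNLS minus Monogenic DeltaNLS, 4 of the 6 genes fell and 0 rose, where 6.54% of all 12393 genes fell and 7.76% rose. The arrays of the same 4 did not overlap, a separation that 8.33% of all genes showed in that direction. When each array was left out in turn the count was 3 or 4, and Trpc6 was the gene lost. Of the dentate gyrus and hippocampus markers 6 of 8 were measured, and their summed log2 level was lower too. It was 26 to 27.3 in tTA/TDP-DeltaNLS and 29 to 29.5 in Monogenic DeltaNLS. Of these genes only Wfs1 (-1.65 ± 0.14, limma adjusted p = 6.4e-07) and Neurod1 (-1.10 ± 0.12, 1.1e-05) fell. The defining genes Prox1 and Tdo2 were at the lowest value on all arrays. Dsp (0.03) and Lct (0.05) did not fall, and were at the lowest value on 18 and 16 of the 21 arrays. The summed microglial level over 4 of 4 genes was 34.8 to 36.4 against 37.4 to 38.1, with 0 of the 4 past the threshold. The part of either list in the fall of the 4 genes was not tested. The cortical excitatory list overlapped between these groups (58.3 to 61 against 59.1 to 62.4).

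**Figure D2:**
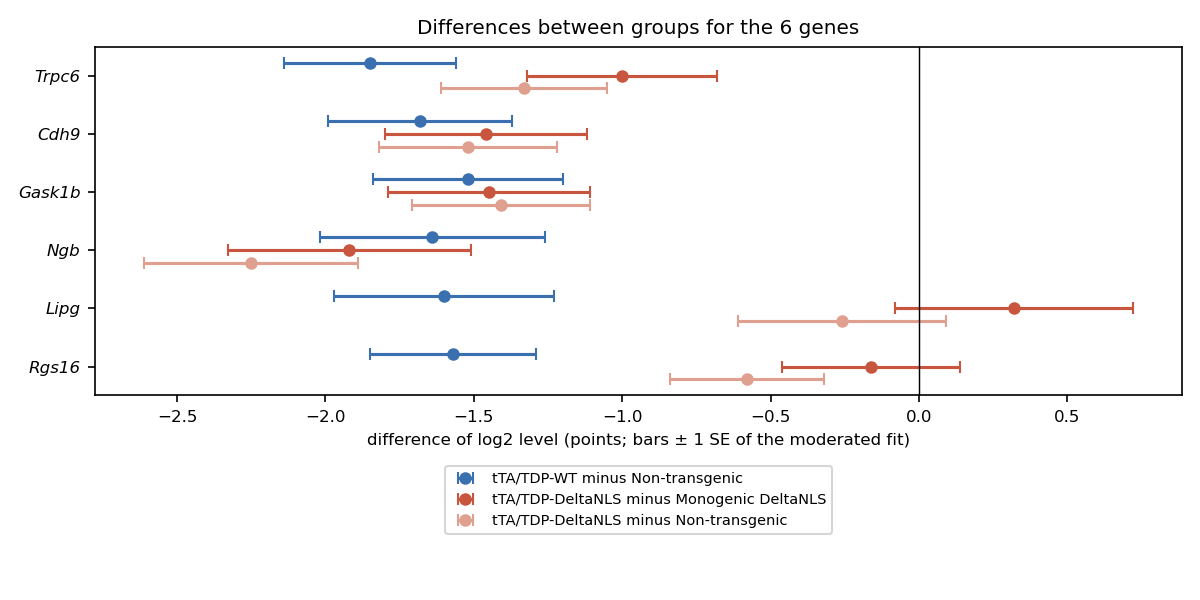
Log2 differences of the 6 genes (points, with bars of ± 1 SE) in tTA/TDP-WT minus Non-transgenic, tTA/TDP-DeltaNLS minus Monogenic DeltaNLS and tTA/TDP-DeltaNLS minus Non-transgenic. Trpc6, Cdh9, Gask1b and Ngb lie below 0 in the tTA/TDP-DeltaNLS contrasts, and Lipg and Rgs16 lie near 0 in tTA/TDP-DeltaNLS minus Monogenic DeltaNLS.

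Set against Non-transgenic arrays, which also entered the choice, tTA/TDP-DeltaNLS was lower by -1.33 ± 0.28 in Trpc6, -1.52 ± 0.30 in Cdh9, -1.41 ± 0.30 in Gask1b and -2.25 ± 0.36 in Ngb. The arrays of these 4 did not overlap, as for 5.40% of all genes. Lipg stood at -0.26 ± 0.35 and Rgs16 at -0.58 ± 0.26, both with overlap. Without Non-transgenic arrays 4 and 6 these values were -1.19, -1.58, -1.34 and -1.90 for the first 4 genes, 0.02 for Lipg and -0.35 for Rgs16. The second probe sets had the opposite sign over all arrays, at 0.63 ± 0.46 in Lipg and 0.55 ± 0.21 in Rgs16, both with overlap. Monogenic DeltaNLS minus Non-transgenic gave -0.32, -0.06, 0.04, -0.33, -0.57 and -0.42 for Trpc6, Cdh9, Gask1b, Ngb, Lipg and Rgs16. Without the same 2 arrays they were -0.19, -0.11, 0.12, 0.02, -0.29 and -0.19.

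Against Monogenic DeltaNLS arrays, tTA/TDP-WT was at -1.53 ± 0.35 in Trpc6, -1.62 ± 0.38 in Cdh9, -1.57 ± 0.38 in Gask1b, -1.31 ± 0.46 in Ngb, -1.03 ± 0.45 in Lipg and -1.15 ± 0.33 in Rgs16. All but Ngb were lower on every tTA/TDP-WT array, as were 5.76% of all genes. This contrast also crosses the 2 lines, and limma called 0 genes lower and 3 higher (0.0242%) in it at an adjusted p under 0.05, with 456 lower and 407 higher at an unadjusted p under 0.05. Between both tTA groups, tTA/TDP-WT minus tTA/TDP-DeltaNLS was -1.34 ± 0.43 in Lipg and -1.0 ± 0.32 in Rgs16, with all wild-type arrays lower, as for 11.7% of all genes. The second probe sets gave -2.21 and -1.14, also without overlap. Ngb went the other way, at 0.61 ± 0.44, with every wild-type array higher, as for 9.12% of all genes. Trpc6 (-0.53 ± 0.34), Cdh9 (-0.16) and Gask1b (-0.11) overlapped. These sizes carry no test here, since the wild-type arrays entered the choice, and transgene and line cannot be told apart in them.

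The choice of the genes was examined as a description. Among the 191 genes that limma placed lower in tTA/TDP-WT minus Non-transgenic at an adjusted p under 0.05, which is 1.54% of all, Trpc6 ranked 6, Cdh9 7, Ngb 8, Lipg 10, Rgs16 11 and Gask1b 12. Gask1b stood just inside, at -1.52, and Gm19531 just outside, also at -1.52. The arrays of 4 of the 6, all but Ngb and Gask1b, did not overlap, against 2.95% of all genes. The other genes of the first 12 were Ncapg2 (-3.53), Susd2 (-2.76), Otof (-2.66), Gm29722 (-1.99), Myh7 (-1.86) and Pisd-ps3 (-1.61). Of these, Susd2 (-3.27, adjusted p = 8.0e-05), Otof (-4.0, 1.3e-04) and Myh7 (-3.79, 4.6e-05) fell in tTA/TDP-DeltaNLS minus Monogenic DeltaNLS. Ncapg2 (-0.85, 0.532), Gm29722 (-1.20, 0.120) and Pisd-ps3 (-0.23, 0.750) did not pass there.

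How many of the 6 stayed past the threshold in the choosing contrast depended on single arrays. All 6 stayed in 11 of 21 omissions of 1 array. Trpc6, Cdh9 and Gask1b stayed without tTA/TDP-WT 1, Trpc6, Cdh9 and Rgs16 without array 2, Trpc6 alone without array 3, and all but Lipg and Gask1b without array 4. The number of genes lower in all was 23, 36, 21 and 69 in those fits. Ngb was lost without tTA/TDP-DeltaNLS 2 or 3 or Monogenic DeltaNLS 3, Lipg without Monogenic DeltaNLS 4 or Non-transgenic 7, and both without Non-transgenic 3. With only the 2 Non-transgenic mice of line WT12 as controls, 0 of the 6 and 1 gene in all passed, and the same counts held for arrays labelled female alone.

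The line itself was compared in Non-transgenic mice, 2 of line WT12 against 6 of line NLS4. Ngb was at -1.06 ± 0.50 in WT12 (limma adjusted p = 0.453), with both WT12 arrays below all 6 others. Trpc6 was at -0.80 ± 0.38 (adjusted p = 0.453). Cdh9 (0.04, adjusted p = 1.00), Gask1b (0.28 ± 0.47, 0.967), Lipg (-0.30, 0.993) and Rgs16 (-0.19, 1.00) were nearer to 0. The second probe set of Lipg, however, was at -1.12 ± 0.65 (limma adjusted p = 0.486 over all probe sets). That of Rgs16 was at -0.28 ± 0.33 (0.821). Among all genes 1, or 0.00807%, passed, and 1361 had an unadjusted p under 0.05. Non-transgenic arrays 4 and 6 are both of line NLS4. Without them the difference was -0.45 ± 0.40 in Ngb, -0.54 ± 0.41 in Trpc6, 0.25 ± 0.43 in Cdh9, 0.53 ± 0.51 in Gask1b, 0.25 ± 0.50 in Lipg and 0.29 ± 0.33 in Rgs16, so that Lipg and Rgs16 turned sign (adjusted p from 0.943 to 1.00). Against the 2 Non-transgenic mice of its own line, tTA/TDP-WT was at -1.30 ± 0.38 in Trpc6, -1.71 ± 0.45 in Cdh9, -1.71 ± 0.46 in Gask1b, -0.91 ± 0.49 in Ngb, -1.39 ± 0.54 in Lipg and -1.44 ± 0.40 in Rgs16. On these probe sets all wild-type arrays were lower in each gene but Ngb. The second probe sets of Lipg (-0.80 ± 0.64) and Rgs16 (-0.39 ± 0.32) overlapped. The size was thus smaller within the line than over all controls for Ngb (-1.64 over all controls), Trpc6 (-1.85), Lipg (-1.60) and Rgs16 (-1.57). It was not smaller for Cdh9 (-1.68 over all controls) and Gask1b (-1.52). For the second probe sets of Lipg (-1.57 over all controls) and Rgs16 (-0.58) the size was smaller within the line too.

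**Figure D3:**
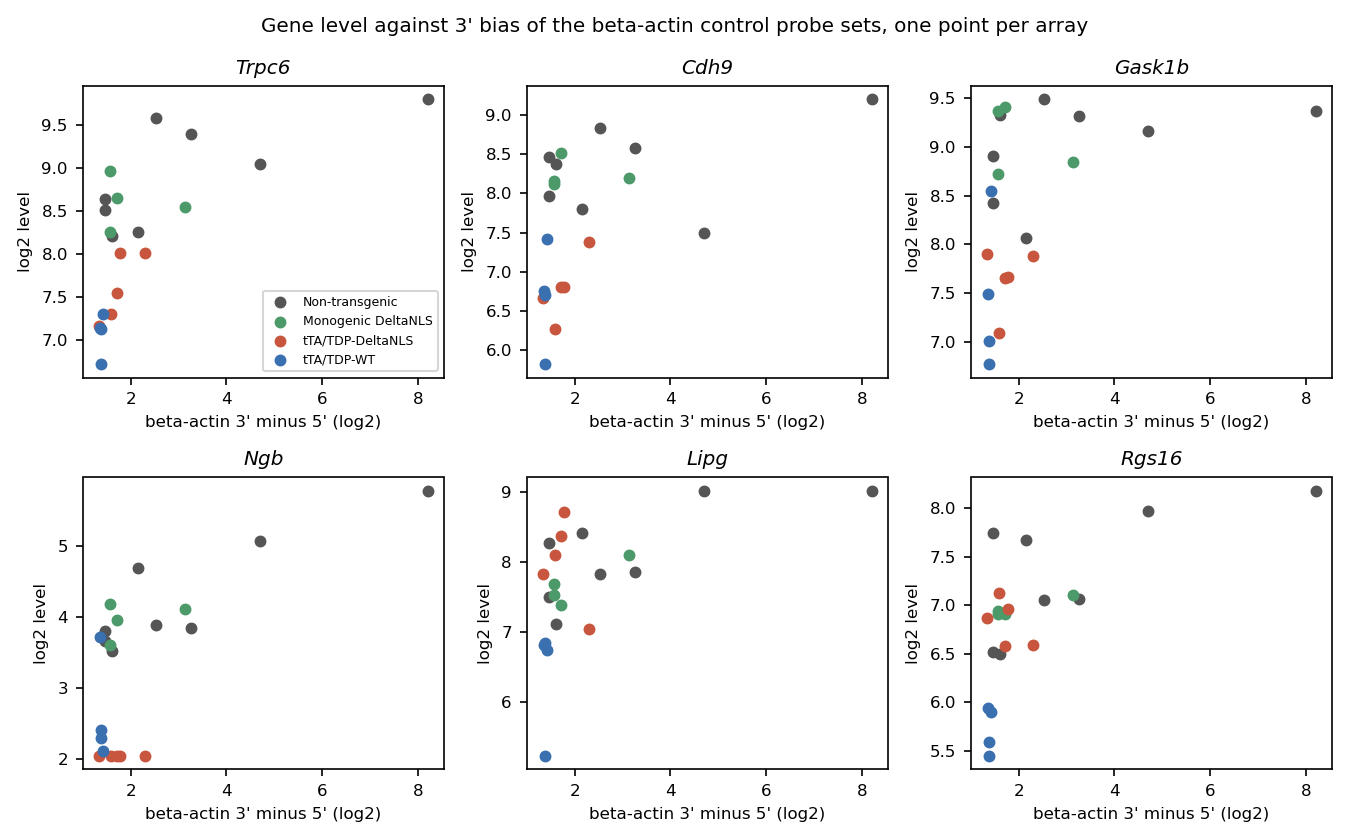
Log2 level of each of the 6 genes (vertical axes) against the 3' minus 5' actin difference of each array (horizontal axis, log2 units), with points by genotype group. Non-transgenic arrays 4 and 6, at 4.70 and 8.20, hold the highest Non-transgenic levels of Ngb, Lipg and Rgs16.

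Among mice of 1 group, levels of some of the 6 genes also varied together, and others did not. After group means were subtracted, Pearson's r over the 21 arrays was 0.72 for Cdh9 and Gask1b, 0.63 for Trpc6 and Cdh9, and 0.58 for Trpc6 and Gask1b. It was 0.77 for Lipg and Rgs16, 0.69 for Ngb and Rgs16, and 0.58 for Ngb and Lipg. Between the set of Trpc6, Cdh9 and Gask1b and the set of Ngb, Lipg and Rgs16 it lay between -0.08 and 0.33. Non-transgenic arrays 4 and 6 were the highest of their group in Ngb (5.07 and 5.78), Lipg (9.02 and 9.01) and Rgs16 (7.97 and 8.18). Without them, over 19 arrays, r was 0.85, 0.67 and 0.56 in the first set and 0.66, 0.38 and 0.32 in the second. Between the sets it then lay between -0.37 and 0.14. These points share array, RNA quality and normalization, and the r values are descriptions.

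Among 7589 genes with a mean log2 level of at least 4, the genes whose level was most like each of the 6 over the 21 arrays were taken by Pearson's r. Reln, the secreted glycoprotein reelin that guides cortical layering, was first for Trpc6 (r = 0.906) and for Cdh9 (0.939), and was among the 3 for Gask1b (0.867). Its means were 10.59 ± 0.16 in tTA/TDP-WT, 10.77 ± 0.24 in tTA/TDP-DeltaNLS, 11.23 ± 0.09 in Monogenic DeltaNLS and 11.30 ± 0.19 in Non-transgenic. Cdh9 had Gask1b (0.922) and Trpc6 (0.892) as its next. Cdh9 and Gask1b were each among the 3 of the other, but neither was among the 3 for Trpc6. The r values include the differences between groups, among them the one that chose the genes. The next for Trpc6 were the protocadherin Pcdh20 (0.893) and Oaz1 (0.892), and Gask1b had Cdh9 (0.922) and Man1a2 (0.876). For Ngb they were Otof (0.963), Kctd4 (0.940) and Lrrtm1 (0.940). Otof, which is known from synaptic vesicle release in hair cells, stood at 2.17 ± 0.25 in tTA/TDP-DeltaNLS and 3.78 ± 1.01 in tTA/TDP-WT, against 6.18 ± 0.54 and 6.44 ± 1.08 in Monogenic DeltaNLS and Non-transgenic. Lipg had Celf4 (0.915), Aff4 (0.907) and Cd200 (0.900), and Rgs16 had Hipk3 (0.939), Plagl1 (0.936) and the potassium channel Kcnma1 (0.923). With Spearman's rho 6 of these 18 genes were again among the 3 of the same member. Reln was then among the 3 for Cdh9 but not for Trpc6 or Gask1b.

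The relatives of the 6 genes were counted from family lists. Apart from the 6 themselves, 56 of 77 listed relatives were measured, and 10 of these were at the lowest value on all arrays. In tTA/TDP-WT minus Non-transgenic, limma called 0 higher and 0 lower over all genes, with 1 higher and 12 lower at an unadjusted p under 0.05, where 7.56% of all genes were higher and 10.9% lower. The median of the 56 was -0.03, against 0 over all genes. In tTA/TDP-DeltaNLS minus Monogenic DeltaNLS, 2 rose and 8 fell of the 56, where 7.76% of all genes rose and 6.54% fell, with a median of -0.05 against 0.

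**Figure D4:**
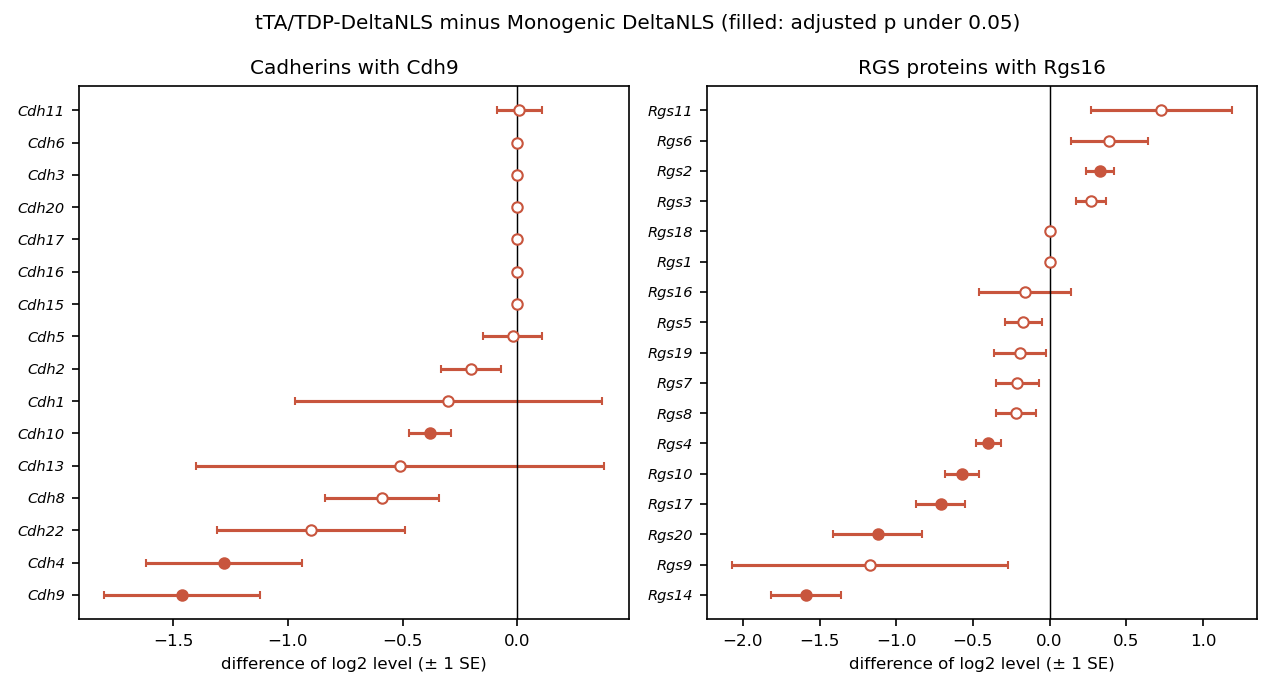
Log2 difference (points, with bars of ± 1 SE) in tTA/TDP-DeltaNLS minus Monogenic DeltaNLS of 15 other cadherins with Cdh9 (left) and 16 other RGS genes with Rgs16 (right), filled where the adjusted p was under 0.05. Cdh9 is the lowest of its family at -1.46, and Rgs16 lies near 0 at -0.16 while Rgs14 is lowest at -1.59.

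By family in tTA/TDP-DeltaNLS minus Monogenic DeltaNLS, 0 of 5 other TRPC channels and 0 of 9 globin or heme genes passed (limma, with 0 and 1 at an unadjusted p under 0.05). Of 15 other cadherins 2 fell, Cdh4 (-1.28 ± 0.34, adjusted p = 0.0160) and Cdh10 (-0.38 ± 0.09, 0.00631). Cdh10 is a type II cadherin like Cdh9. Of 16 other RGS genes 1 rose and 5 fell. The 4 with the largest changes were Rgs14 (-1.59 ± 0.23, 1.3e-04), which is known from hippocampal CA2 neurons, Rgs20 (-1.12 ± 0.29, 0.0134), Rgs17 (-0.71 ± 0.16, 0.00494) and Rgs10 (-0.57 ± 0.11, 0.00130). The others, named after their values were seen, were Rgs4 (-0.40 ± 0.08, 0.00167), which fell, and Rgs2 (0.33 ± 0.09, 0.0152), which rose. Of 5 relatives of Lipg 1 fell, the lipoprotein lipase Lpl (-1.17 ± 0.33, 0.0247). Of 6 relatives of Gask1b 1 rose, Dipk1b (1.07 ± 0.15, 8.0e-05). The call of Cdh4 was lost without Monogenic DeltaNLS 3 (adjusted p = 0.0628), that of Rgs20 without Monogenic DeltaNLS 2 (0.0575) and that of Rgs2 without Monogenic DeltaNLS 4 (0.0774). The call of Lpl was lost without tTA/TDP-DeltaNLS 1 (0.0666) and without Monogenic DeltaNLS 1, 2 and 3 (0.0637, 0.0812 and 0.0963).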

How the data were processed

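Values are log2 levels per probe set, deposited by the authors in 1 table. The labels do not name the scale, and log2 was read from the range of the values. Partek is named in the submitters' processing notes without a version or role. How background was handled and how arrays were normalized is not given in the sources used here. The labels state an RNA integrity number of at least 7. No column of values was left unused.

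Of 22690 probe sets, 64 were controls, 20380 carried 1 gene symbol, 691 several and 1555 none. The probe set of highest mean stood for each of 12393 genes. Differences came from limma 3.58.1 in R 4.3.3 (lmFit and eBayes with an intensity trend), over all 21 arrays and 4 groups with sex as a covariate, and Benjamini-Hochberg adjustment over all genes at 0.05. The fit was tested on simulated data, with changes planted only in tTA/TDP-DeltaNLS and only in genes well above the lowest value. That simulation therefore does not cover genes near that value, such as Ngb, or changes in tTA/TDP-WT. Standard deviations are over mice. Named genes were the 6 members, relatives past the threshold (up to 4 a family by size), the 3 most correlated genes a member, and the first 12 decreases with the next one. The members and lists were chosen with earlier results of these data known. Alternatives were another sex coding or none, centring, filters, probe set and variance settings, other controls, fewer arrays and each array left out. The precision is limited by the number of arrays.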

Additional observations from a re-analysis of the deposited data

Results flagged for a closer look

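On 2 occasions a single array stood apart from the rest of their group, by the gap to the nearest array over the range of the group. Lipg (1450188_s_at) read 5.23 on tTA/TDP-WT array 3, where the nearest array of the group read 6.75. Rgs16 (1455265_a_at) read 7.11 on Monogenic DeltaNLS array 2, where the nearest read 6.94 and the group is narrow. There were 31 such checks and 2 were past the limit, where chance alone passes about 5%.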

How the results depend on the processing

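The fall of Cdh9, Gask1b and Ngb in tTA/TDP-DeltaNLS minus Monogenic DeltaNLS kept its direction and side of the threshold in every alternative run, and Trpc6 lost its call only as given above. Members lower there numbered 3 to 4 with single arrays left out. The reversals came without Non-transgenic arrays 4 and 6: Lipg in tTA/TDP-DeltaNLS minus Non-transgenic (0.02), and Lipg (0.25) and Rgs16 (0.29) in the line comparison, an alternative added after seeing the data. In tTA/TDP-WT minus Non-transgenic, genes lower (191) numbered 347 without sex, 4740 with arrays centred on their medians, 1 with controls of the same line, 1 in females alone and 290 with the sex of Non-transgenic array 1 read from Xist, an alternative chosen after seeing the data. Genes higher there (85) numbered 158, 226, 0 and 0 under the first 4 of these, 135 with every probe set and 158 without Non-transgenic 4 and 6. Relatives lower (0) numbered 3 without sex, 27 centred, 3 without genes at the lowest value on all arrays, 2 without Non-transgenic 4 and 6, and 3 with the Xist sex. Centring moved the median gene by -0.113, and by -0.036 in tTA/TDP-DeltaNLS minus Monogenic DeltaNLS. It shifts the 2854 genes at the lowest value on all arrays, which are among the 4740. In tTA/TDP-DeltaNLS minus Monogenic DeltaNLS, genes lower (811) numbered 1321 and higher (962) 1564 without Non-transgenic 4 and 6, and relatives higher 1 when centred. In tTA/TDP-DeltaNLS minus Non-transgenic, genes higher (1336) numbered 2084 with every probe set. With single arrays left out, the ranges were 21 to 398 lower and 14 to 181 higher in the choosing contrast, 0 to 3 relatives lower there, 639 to 1149 lower and 733 to 1368 higher in tTA/TDP-DeltaNLS minus Monogenic DeltaNLS with 6 to 9 relatives lower and 1 to 2 higher, and 1190 to 1668 lower and 1155 to 1648 higher in tTA/TDP-DeltaNLS minus Non-transgenic. Spearman's rho gave 6 of the 18 similar genes again. Except for the centring, the cause of these moves was not tested. In the fit on the 9 arrays of tTA/TDP-DeltaNLS and Monogenic DeltaNLS alone, Lpl (adjusted p = 0.109) and Rgs20 (0.0519) lost their calls, and Rgs2 did when centred (0.0587). No paired analysis was possible because the labels' numbers are not shared between groups and each mouse gave 1 array. Signal near the lowest value limits Ngb.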
